A study of Mus musculus with 19 samples.

Results

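The genes described here are 10 members of the insulin and insulin-like growth factor (IGF) axis, chosen by name as its ligands (Igf1, Igf2), receptors (Igf1r, Igf2r, Insr), receptor adaptors (Irs1, Irs2) and binding proteins (Igfbp2, Igfbp4, Igfbp5). They are 10 of the 48709 genes in the count files, and all 10 were among the 19286 genes that had enough reads to be tested. RNA was sequenced in 19 libraries from microdissected hippocampal CA1 tissue of male C57B/6J wild-type mice. The labels number the libraries within each group and do not identify the animals. Young mice were 3 months old (n = 6 libraries), old control mice were 16.5 months old (n = 6), and old anti-miR-mix mice were also 16.5 months old (n = 7). The anti-miR-mix, 3 oligonucleotides that inhibit miR-146a, miR-148a and miR-181a, was given in lipid nanoparticles into the dorsal hippocampus, and by the study's description controls received control oligonucleotides in the same way. No animal without an injection was analysed here, so the groups share the surgery and the nanoparticles. The comparisons ask which of these genes differ with age (old control against young), with treatment (old anti-miR-mix against old control), and between treated old and young mice. The last uses the libraries of the other comparisons again, so the 3 sets of values are not independent.

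Insulin and the IGFs act through related tyrosine kinase receptors, Insr and Igf1r, which recruit the adaptors Irs1 and Irs2 and so activate PI3-kinase, Akt and mTOR. Igf2r carries no kinase, and it takes Igf2 from the cell surface to lysosomes for degradation. The binding proteins are secreted, hold IGFs in the extracellular space and can block or prolong their action. In brain, Igf2 is known from the meninges and choroid plexus, Igf1 from neurons and microglia, and signalling through these receptors has been tied to neuronal survival, to memory and to ageing.

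The microRNA sequences are shown because they define the treatment, with the seed (bases 2 to 8, which pair with target RNAs) in capitals. The mature sequences come from RefSeq (GRCm38.p6) and are encoded at chr11:43374435-43374456 on the minus strand (miR-146a-5p), at chr6:51269829-51269850 on the minus strand (miR-148a-3p). The third, miR-181a-5p, is encoded on the plus strand at both chr1:137966468-137966490 and chr2:38852741-38852763. The inhibitors and the control oligonucleotide are those listed by the study, 5′ to 3′.
miR-146a-5p: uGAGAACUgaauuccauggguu
miR-148a-3p: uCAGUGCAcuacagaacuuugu
miR-181a-5p: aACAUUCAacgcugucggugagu
inhibitor of miR-146a-5p: acccatggaattcagttctc
inhibitor of miR-148a-3p: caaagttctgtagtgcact
inhibitor of miR-181a-5p: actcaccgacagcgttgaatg
control oligonucleotide: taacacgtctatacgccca
The inhibitors were complementary to bases 2 to 21, 3 to 21 and 3 to 23 of their microRNAs.

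The 3′UTRs of the 10 genes were searched for the words that pair with the 3 seeds, AGTTCTC for miR-146a-5p, TGCACTG for miR-148a-3p and TGAATGT for miR-181a-5p, on the transcribed strand. A total of 1, 0 and 3 of the 10 genes held them, against 12.4%, 14.9% and 18.1% of 15339 tested genes with an annotated 3′UTR. The 3′UTRs of 8 of the 10 genes were 2329 to 7267 bases long, where the median of tested genes was 1165, so these shares were not taken over like lengths. The 4 sites are shown with the seed match in capitals, since they are the places in these transcripts where the inhibited microRNAs could pair. They lie in the 3′UTR exons of Igf1 (chr10:87934144-87934150, plus strand), Igf2 (chr7:142651079-142651085, minus strand), Insr (chr8:3153282-3153288, minus strand) and Irs2 (chr8:10985470-10985476, minus strand) of GRCm38.
Igf1, for miR-181a-5p: ctccttctccttcttTGAATGTcaatgtga
Igf2, for miR-146a-5p: tgtccccacatttgcAGTTCTCcccatcat
Insr, for miR-181a-5p: tgtaaaaaaatgttaTGAATGTaaattttt
Irs2, for miR-181a-5p: attgcaagacaaagtTGAATGTaaattgat
In Insr and Irs2 the match was followed by an A opposite base 1 of the microRNA, which was not the case in Igf1 and Igf2. A match of these letters is a description of the sequence and not evidence of binding.

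Counts summed to between 26653511 and 38908947 reads per library. CA1 pyramidal markers (Wfs1, Fibcd1, Mpped1, Pou3f1, Man1a) summed to between 725 and 1089 reads normalised to library size (CPM) in every library, against at most 37.4 CPM for CA3, 111 for dentate granule and 33.6 for thalamic markers, so that CA1 markers exceeded those of the neighbouring regions in every library. Microglial markers were higher in the treated mice, with 4 of 7 homeostatic and 5 of 7 activated genes called higher in old anti-miR-mix than in old control libraries. Oligodendrocyte markers were lower in old control than in young mice, with 4 of 6 called, and their sum was 4083 to 6355 CPM in young, 3436 to 4232 in old control and 3519 to 5118 in old anti-miR-mix libraries. Old control replicates 5 and 6 differed far less from each other (chi-square per degree of freedom 2.18) than any other pair of a group (6.10 and above). Whether they came from separate animals could not be checked, and each call among the 10 genes is also given with them counted as 1 library. The deposited normalised table revealed 4 groups of libraries, termed processing groups, that had been handled as a numbered covariate. They were spread unevenly over the experimental groups, since group 3 held 0 old control, 2 young and 3 old anti-miR-mix libraries. Differences within them are given beside the calls among the 10 genes.

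Transcript levels differed widely between the genes when CPM was divided by exon length. Igfbp5 was the highest at 48.2 ± 9.45 CPM per kb (SD, n = 19), and Igfbp4 followed at 22.9 ± 3.84. Next came Irs2 at 13.2 ± 1.61, Igfbp2 at 8.68 ± 2.56, Insr at 6.54 ± 0.219, Igf2 at 5.79 ± 2.87, Igf2r at 5.71 ± 0.257 and Igf1r at 4.72 ± 0.293 CPM per kb. Irs1 (1.5 ± 0.207) and Igf1 (1.24 ± 0.116) were the lowest. The binding proteins Igfbp5 and Igfbp4 thus held the top of the order, Igfbp2 came after Irs2, and Igf1 stood at the end. Between neighbours in this order, the ranges over 19 libraries did not touch for Igfbp5 over Igfbp4 and for Igf1r over Irs1. Igfbp4 exceeded Irs2, Igf2r exceeded Igf1r and Irs1 exceeded Igf1 in 19 of 19 libraries, although the ranges met. Irs2 exceeded Igfbp2 in 17 of 19 libraries, and Igfbp2 exceeded Insr and Insr exceeded Igf2 in 14 of 19 libraries each. Igf2 exceeded Igf2r in only 7 of 19 libraries, so these neighbours did not differ beyond their spread. These levels rest on between 298 reads (Igfbp2) and 12151 reads (Igfbp5) per library.

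**Figure D1:**
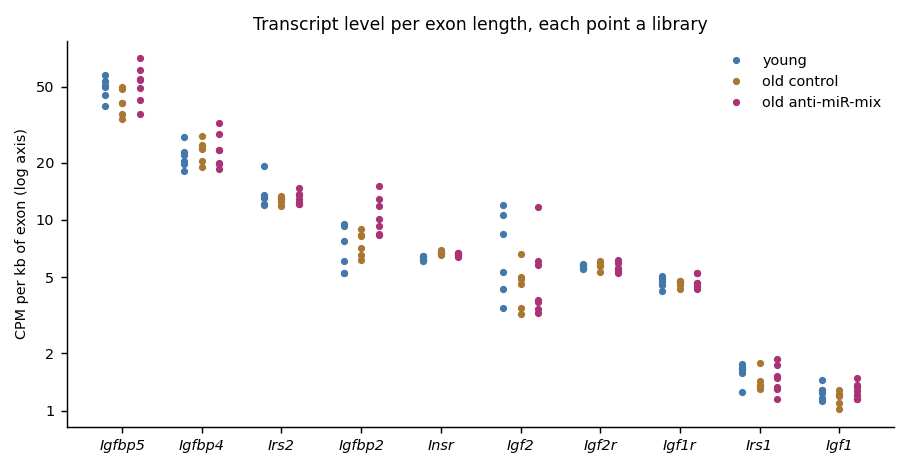
CPM per kb of exon (log axis) for each gene, ordered by mean level, with a point for each of the 19 libraries coloured by group. Igfbp5 stands at the top with a mean of 48.2 CPM per kb, Irs1 and Igf1 at the bottom with 1.5 and 1.24, and Igf2 spreads over the widest range of the genes in the middle.

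With age, 1 of the 10 genes passed an adjusted p of 0.05 in edgeR's quasi-likelihood test, Insr, which was higher in old control mice, while 2.67% of all genes tested passed. The values of young and old control did not overlap for 1 of the 10 genes, again Insr, against 2.54% of all genes. With treatment, 0 of the 10 genes passed in edgeR (2 had an unadjusted p under 0.05, and 0 passed in DESeq2), against 0.669% of all genes, and the groups did not overlap for 0 of the 10, against 0.498%. Between old anti-miR-mix and young mice, 1 of the 10 genes passed, Igfbp2, which was higher in the treated mice, against 6.2% of all genes. The groups did not overlap for 0 of the 10 genes in that comparison, against 2.42%. The median log2 fold change of the 10 genes was -0.067 with age, 0.050 with treatment and 0.012 between treated and young mice, and that of all genes was 0.0064, 0.00035 and 0.0028. With a count of 0 or 1 among 10, these shares cannot be set apart from those of all genes.

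**Figure D2:**
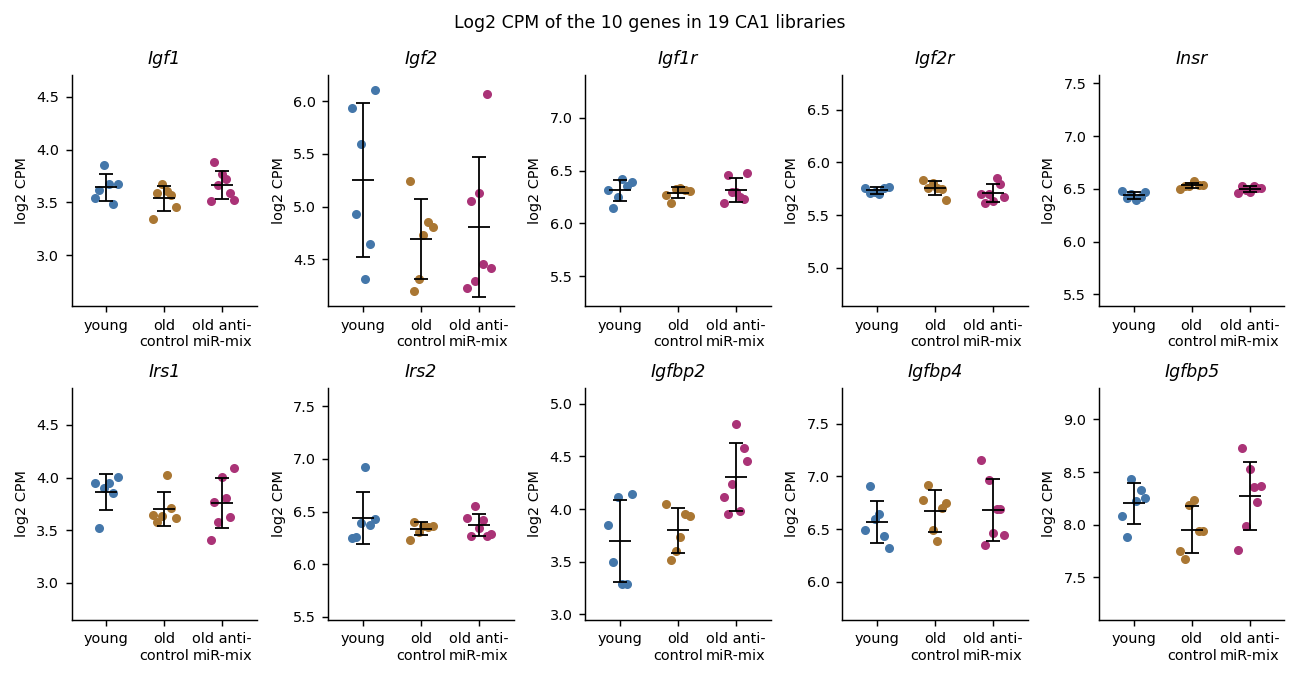
Log2 CPM of each gene in each library (points) by group, with the mean and SD (black bars), on axes of the same height. The Insr values are tightly packed at 6.39 to 6.58, while Igf2 spreads from 4.20 to 6.11 and Igfbp2 shows its highest values in old anti-miR-mix mice.

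**Figure D3:**
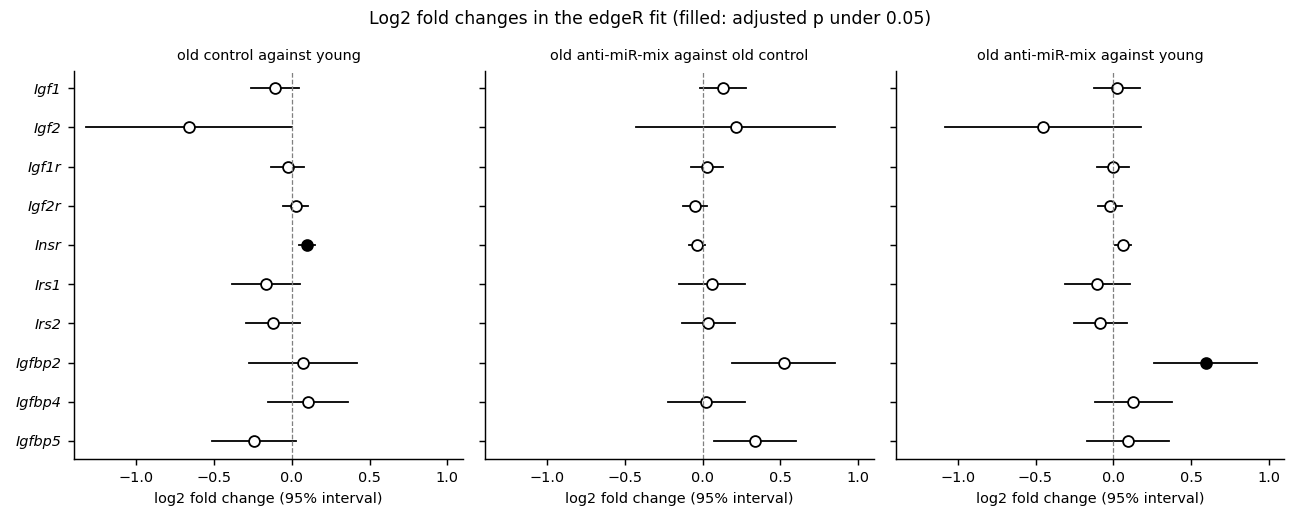
Log2 fold change (point) and 95% interval (line) of each gene in the 3 comparisons, from 1 edgeR fit of 19 libraries, with a filled point where the adjusted p is under 0.05. Insr is filled with age at 0.097 and Igfbp2 between old anti-miR-mix and young at 0.60, and Igf2 has the widest intervals.

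Of the ligands, Igf2 (ENSMUSG00000048583, chr7:142650766-142666816, minus strand), the fetal growth factor of the family, was the most variable of the 10 genes. Its log2 CPM ranged from 4.32 to 6.11 in young mice (median 5.27), from 4.20 to 5.25 in old control mice (median 4.77) and from 4.23 to 6.07 in old anti-miR-mix mice (median 4.45). The 3 groups overlapped over most of their ranges, and the highest values came from young and from treated libraries alike. The fitted difference of old control from young was -0.66 (SE 0.32, 95% interval -1.32 to -0.0018), which did not pass (edgeR adjusted p = 0.276, unadjusted p = 0.0494). With treatment the difference was 0.21 (SE 0.31, adjusted p = 0.872), and without old anti-miR-mix replicate 6, the library at 6.07, it was -0.10. Old anti-miR-mix stood at -0.45 relative to young (SE 0.30, adjusted p = 0.452). Between 517 and 2316 reads per library stood behind these values. Its exons overlap those of the antisense gene Igf2os, which averaged 9.26 reads per library, and of Gm49394, whose reads were not analysed here. Strand was not recorded by the library kit, so reads in the shared exons could not be separated.

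Igf1 (ENSMUSG00000020053, chr10:87858265-87937042, plus strand), the growth factor that mediates much of the action of growth hormone, showed little difference between groups. Young mice had a log2 CPM of 3.48 to 3.85 (median 3.65), old control mice 3.34 to 3.67 (median 3.58) and old anti-miR-mix mice 3.51 to 3.88 (median 3.66), so that the groups overlapped. The differences were -0.11 with age (95% interval -0.26 to 0.047, edgeR adjusted p = 0.483) and 0.13 with treatment (95% interval -0.018 to 0.28, adjusted p = 0.551). Treated and young mice differed by 0.024 (adjusted p = 0.904). The transcripts of insulin itself were not tested. Ins1 had 0 reads in all 19 libraries, where a count of 0 allows up to 3 reads, and Ins2 had 1 read in 1 library and 0 in the other 18.

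Of the receptors, Insr (ENSMUSG00000005534, chr8:3122061-3279617, minus strand), the insulin receptor, had a slightly higher level in the old control group than in the young. Its log2 CPM was 6.39 to 6.48 in young (median 6.44), 6.50 to 6.58 in old control (median 6.54) and 6.46 to 6.53 in old anti-miR-mix mice (median 6.51). Every old control library lay above every young library, and the treated libraries overlapped both. The difference with age was 0.097 (SE 0.026, 95% interval 0.044 to 0.15), a 1.07-fold higher level (edgeR adjusted p = 0.0453). This size was detectable because Insr varied very little within groups, with an SD of 0.029 on the log2 scale where the median gene with a mean of at least 50 reads had 0.108, and 0.0284% of such genes varied less. The call was close to its threshold. It held in 5 of 15 other settings (DESeq2 adjusted p = 0.00857) and was lost in 10, with an adjusted p of 0.0923 with processing group as a factor, 0.0829 with old control replicates 5 and 6 as 1 library, 0.0771 with a replicate block and 0.419 with the oligodendrocyte marker sum as a term. The log2 fold change stayed between 0.070 and 0.11 in all of these and without each library in turn. Of 19 libraries left out, 4 kept the call (young replicate 1 and old anti-miR-mix replicates 1, 2 and 5), and without each of the other 15 the adjusted p lay above 0.05, at most 0.113. Within processing groups old control exceeded young by 0.033 in group 1, 0.14 in group 2 and 0.095 in group 4, while group 3 held no old control library. Treated mice differed from old control by -0.037 (95% interval -0.088 to 0.014, adjusted p = 0.644) and from young by 0.060 (95% interval 0.0087 to 0.11, adjusted p = 0.170).

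For the other 2 receptors the intervals of the differences were narrow and all held 0. Igf1r (ENSMUSG00000005533, chr7:67952827-68233668, plus strand), the IGF1 receptor, had a log2 CPM of 6.15 to 6.42 in young (median 6.34), 6.19 to 6.34 in old control (median 6.31) and 6.19 to 6.48 in old anti-miR-mix mice (median 6.29). Its difference with age was -0.027 (95% interval -0.13 to 0.080) and with treatment 0.027 (95% interval -0.076 to 0.13). Igf2r (ENSMUSG00000023830, chr17:12682406-12769664, minus strand), the mannose 6-phosphate receptor that clears Igf2, had a log2 CPM of 5.70 to 5.77 in young (median 5.74), 5.64 to 5.83 in old control (median 5.76) and 5.62 to 5.85 in old anti-miR-mix mice (median 5.70). Its difference was 0.025 with age (95% interval -0.057 to 0.11) and -0.047 with treatment (95% interval -0.13 to 0.031). For both genes the groups overlapped in every comparison, no adjusted p in edgeR was below 0.714, and a change as large as that of Igfbp2 lay outside every interval. The antisense RNA Airn, which spans part of Igf2r on the other strand without sharing an exon, averaged 36.42 reads per library.

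The adaptors Irs1 and Irs2, which link both kinase receptors to PI3-kinase, were called in none of the 3 comparisons by edgeR. Irs1 (ENSMUSG00000055980, chr1:82233101-82291416, minus strand) had a log2 CPM of 3.52 to 4.01 in young (median 3.92), 3.57 to 4.02 in old control (median 3.64) and 3.41 to 4.09 in old anti-miR-mix mice (median 3.77). Its medians were lower in both old groups, but the ranges nearly coincided. The overlap of young and old control rested on young replicate 2 and old control replicate 4. The former was at 3.52, with the other young libraries at 3.85 to 4.01. The latter was at 4.02, with the other old control libraries at 3.57 to 3.71. These libraries were picked out by their values, and the treated libraries spanned both groups. The difference with age was -0.16 (95% interval -0.38 to 0.055, edgeR adjusted p = 0.438), with treatment 0.062 (adjusted p = 0.888) and between treated and young mice -0.10 (adjusted p = 0.645). Irs2 (ENSMUSG00000038894, chr8:10984681-11008458, minus strand) had a log2 CPM of 6.25 to 6.92 in young (median 6.38), 6.23 to 6.40 in old control (median 6.36) and 6.27 to 6.55 in old anti-miR-mix mice (median 6.35). The medians were close together, and the value of 6.92 belonged to young replicate 4 alone, with the other young libraries at most at 6.43. The difference with age was -0.12 (95% interval -0.30 to 0.055, adjusted p = 0.487), and it was -0.0049 without that library. With treatment it was 0.037 (adjusted p = 0.921). The exons of Irs2 overlap those of 9530052E02Rik on the other strand, which averaged 33.79 reads per library against at least 2032 for Irs2.

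Among the binding proteins, Igfbp2 (ENSMUSG00000039323, chr1:72824503-72852474, plus strand), a major IGF binding protein of cerebrospinal fluid, was higher in the treated mice. In log2 CPM, young mice ranged from 3.29 to 4.15 (median 3.67), old control mice from 3.52 to 4.05 (median 3.84) and old anti-miR-mix mice from 3.96 to 4.81 (median 4.23). The treated libraries reached well above both other groups, but the lowest of them lay within their ranges. Relative to young mice the difference was 0.60 (SE 0.16, 95% interval 0.26 to 0.93), a 1.51-fold higher level (edgeR adjusted p = 0.0268). Relative to old control mice it was 0.52 (SE 0.16, 95% interval 0.19 to 0.85), 1.44-fold, which did not pass (edgeR adjusted p = 0.166, unadjusted p = 0.00347, DESeq2 adjusted p = 0.0582). Young and old control mice differed by 0.073 (95% interval -0.27 to 0.42, adjusted p = 0.863). The call against young held in 14 of 15 other settings, with an adjusted p of 0.0261 with processing group as a factor and 0.0333 with old control replicates 5 and 6 as 1 library, and was lost at 0.0652 when only those 2 groups were fitted. It was also lost without young replicate 2, 4 or 5 or old anti-miR-mix replicate 4 or 6, with log2 fold changes between 0.49 and 0.55 and adjusted p values between 0.0521 and 0.0731. Within processing groups 1, 2, 3 and 4 treated mice exceeded young mice by 0.26, 0.71, 0.64 and 0.86, and within groups 1, 2 and 4 they exceeded old control mice by 0.33, 0.54 and 0.64.

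Igfbp5 (ENSMUSG00000026185, chr1:72857932-72874884, minus strand), a binding protein with affinity for extracellular matrix, lies 5457 bases from the end of Igfbp2 and is transcribed towards it. Its log2 CPM was 7.89 to 8.43 in young (median 8.24), 7.67 to 8.23 in old control (median 7.94) and 7.76 to 8.72 in old anti-miR-mix mice (median 8.36). The old control values were the lowest on the whole, with overlap in every comparison. The difference was -0.24 with age (SE 0.13, 95% interval -0.52 to 0.027, edgeR adjusted p = 0.329) and 0.34 with treatment (SE 0.13, 95% interval 0.076 to 0.60, adjusted p = 0.308, unadjusted p = 0.0139). Treated and young mice differed by 0.094 (adjusted p = 0.753). With age the sign was not the same within processing groups, at -0.37 in group 1, 0.32 in group 2 and -0.35 in group 4, while with treatment it was 0.049, 0.34 and 0.27 in the same groups. Igfbp4 (ENSMUSG00000017493, chr11:99041244-99054392, plus strand), which binds IGFs until proteases of the pappalysin family cleave it, had a log2 CPM of 6.32 to 6.91 in young (median 6.55), 6.39 to 6.92 in old control (median 6.72) and 6.35 to 7.16 in old anti-miR-mix mice (median 6.69). Its ranges overlapped almost entirely, and the differences of 0.10 with age, 0.025 with treatment and 0.13 between treated and young mice did not pass (edgeR adjusted p = 0.715, 0.967 and 0.617).

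The 4 genes with a seed match for an inhibited microRNA, Igf1, Igf2, Insr and Irs2, differed between treated and old control mice by 0.13, 0.21, -0.037 and 0.037 on the log2 scale, and none passed in edgeR. The treatment differences of the 6 genes without a match ran from -0.047 (Igf2r) to 0.52 (Igfbp2). The 2 genes with an unadjusted p under 0.05 for treatment, Igfbp2 and Igfbp5, held no match in their 3′UTRs.

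The genes also varied between libraries of the same group, and to very different degrees. The SD within groups on the log2 scale was 0.61 for Igf2, larger than that of 99.3% of genes with a mean of at least 50 reads, 0.32 for Igfbp2 (95.5%), 0.26 for Igfbp5 (91.5%) and 0.24 for Igfbp4 (89.5%). It was 0.20 for Irs1, 0.16 for Irs2, 0.13 for Igf1, 0.093 for Igf1r and 0.065 for Igf2r. The ligand Igf2 and the binding proteins thus varied most and the receptors least. The following correlations are of deviations from the group mean over 19 libraries, and they are given as a description. All genes of a library share its dissection, read depth and processing, and read depth and processing group differed between libraries. Igf2 and Igfbp2 varied together (r = 0.75), as did Irs1 with Igfbp5 (0.70), Igf1r with Irs1 (0.69) and Igf1r with Igfbp5 (0.64). Igfbp4 ran opposite to Igfbp5 (-0.89), Irs1 (-0.82) and Igf1r (-0.75). The neighbouring genes Igfbp2 and Igfbp5 showed almost no relation (0.093).

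The genes most like Igf2, of 14104 compared, were Slc6a13 (r = 0.95), Slc22a8 (0.94) and Bmp6 (0.94), and the first 2 encode transporters of the barriers around the brain. Those most like Igfbp2 were Emilin1 (0.86), Lama1 (0.85) and Col1a1 (0.84), which encode proteins of the extracellular matrix. Without the 2 libraries farthest from the median these values were still at least 0.77. Slc6a13 and Col1a1 are also among the 8 markers of leptomeningeal fibroblasts (with Dcn, Lum, Col1a2, Slc22a6, Ogn and Fmod). The mean log2 CPM of these markers, in which each has the same weight, correlated with Igf2 at 0.94 and with Igfbp2 at 0.79. It ranged from 1.74 to 4.06 in young (median 2.99), 1.96 to 2.82 in old control (median 2.56) and 1.90 to 3.98 in old anti-miR-mix libraries (median 2.59). The highest means of the young and treated groups, 4.06 and 3.98, came from young replicate 6 and old anti-miR-mix replicate 6, which also had the highest Igf2 of their groups. In bulk tissue, fewer cells of a type and less RNA per cell cannot be told apart. Choroid plexus markers, another known source of Igf2, summed to between 15.2 and 109 CPM. The log2 of that sum correlated with Igf2 at 0.27 and with Igfbp2 at -0.0055. By the same measure, a log2 sum in place of a mean, the leptomeningeal markers correlated with Igf2 at 0.76 and with Igfbp2 at 0.67.

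The leptomeningeal markers did not pass in any comparison by edgeR (0 of 8), and none was at 0 in all libraries. The median log2 fold change of the 8 markers was -0.74 with age, where Igf2 was at -0.66 and Igfbp2 at 0.073. With treatment it was 0.55, where Igf2 was at 0.21 and Igfbp2 at 0.52. Between treated and young mice it was -0.27, where Igf2 was at -0.45 and Igfbp2, which passed there, at 0.60. Igfbp2 had the opposite sign to the marker median with age and between treated and young mice. Its sign with age was not settled, since the 95% interval was -0.27 to 0.42. Without each library in turn that difference ran from -0.0055 to 0.17. Dcn made up 35.4% to 79.6% of the summed CPM of the markers. It had the opposite sign to the other 7 with age, at 0.55, and with treatment, at -0.37. A sum of CPM therefore gives Dcn more weight than the mean log2 level does. With the mean log2 level of the markers as a term in the fit, an analysis chosen after seeing these data, the age difference of Igf2 was -0.14 (SE 0.12, edgeR adjusted p = 0.552) and its treatment difference -0.12 (SE 0.11, adjusted p = 0.760). In the same fit Igfbp2 was higher in treated mice by 0.69 relative to young (SE 0.10, adjusted p = 0.000249) and differed by 0.42 from old control, which did not pass (SE 0.10, adjusted p = 0.0606). With the log2 summed CPM as the term instead, the treatment difference of Igfbp2 was 0.56 and passed (adjusted p = 0.0336), and the age difference of Igf2 was -0.74 (adjusted p = 0.0583), so both results depended on how the markers were combined. Igf2 also ran opposite to the summed oligodendrocyte markers (r = -0.65), and with that sum as a term its age difference was -1.41 (SE 0.30, adjusted p = 0.0330).

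Igfbp4 was most like Kcnab2 (0.96), Ociad2 (0.96) and Pou3f1 (0.96), the last a marker of CA1 pyramidal cells, and the summed level of the 5 CA1 markers correlated with Igfbp4 at 0.90, with Igfbp5 at -0.78, with Irs1 at -0.75 and with Igf1r at -0.66. Other lists followed Igfbp5 nearly as closely, with r = 0.75 for thalamic, 0.57 for astrocyte and 0.56 for activated microglial markers, and thalamic markers correlated with Igfbp4 at -0.57. The CA1 marker sum was 827 to 1070 CPM in young (median 922) and 879 to 1089 in old control libraries (median 1064). It was 725 to 1080 CPM in old anti-miR-mix libraries (median 933), and the ranges overlapped widely. Its median was highest in the group with the lowest median of Igfbp5, and a link between them was not tested. With this sum as a term, also chosen after seeing the data, the differences of Igfbp5 were -0.13 with age (SE 0.087, edgeR adjusted p = 0.435) and 0.15 with treatment (SE 0.087, adjusted p = 0.582). Those of Igfbp4 were -0.037 with age (SE 0.059) and 0.21 with treatment (SE 0.059, adjusted p = 0.168). The fitted size of both genes therefore depended on whether the marker sum was in the model, and 0 of the 5 CA1 markers were called with age or treatment, while Wfs1 was called lower between treated and young mice.

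Of the remaining genes, Irs2 was most like the activity-induced transcription factors Fosb (0.94) and Egr2 (0.90) and the gene Midn (0.90), and these fell to 0.76, 0.67 and 0.67 without the 2 farthest libraries. Among the genes most like Insr were Tanc2 (0.84) and Atp6v0c-ps2 (0.81), and Igf1r was most like Acaca (0.90), Jmy (0.87) and Ntsr1 (0.84). Irs1 was most like Auts2 (0.91), Gm37176 (0.89) and Il4ra (0.88), and Igfbp5 like Carmil1 (0.91), Phyhipl (0.91) and Itgb8 (0.89). The closest to Igf1 were Gm26840 (0.84), Nfatc3 (0.82) and Ryk (0.81), and to Igf2r Mgea5 (0.81), Riox2 (0.79) and Pfkfb2 (0.78). Igf1 correlated with the summed thalamic (0.66), astrocyte (0.63), microglial (0.62) and activated microglial (0.60) markers. The microglial sum ran from 346 to 450 CPM in young, from 440 to 518 in old control and from 514 to 679 in old anti-miR-mix libraries, while the medians of Igf1 in young and treated mice were alike at 3.65 and 3.66. The part of these cell types in the values of Igf1 was not tested.

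**Figure D4:**
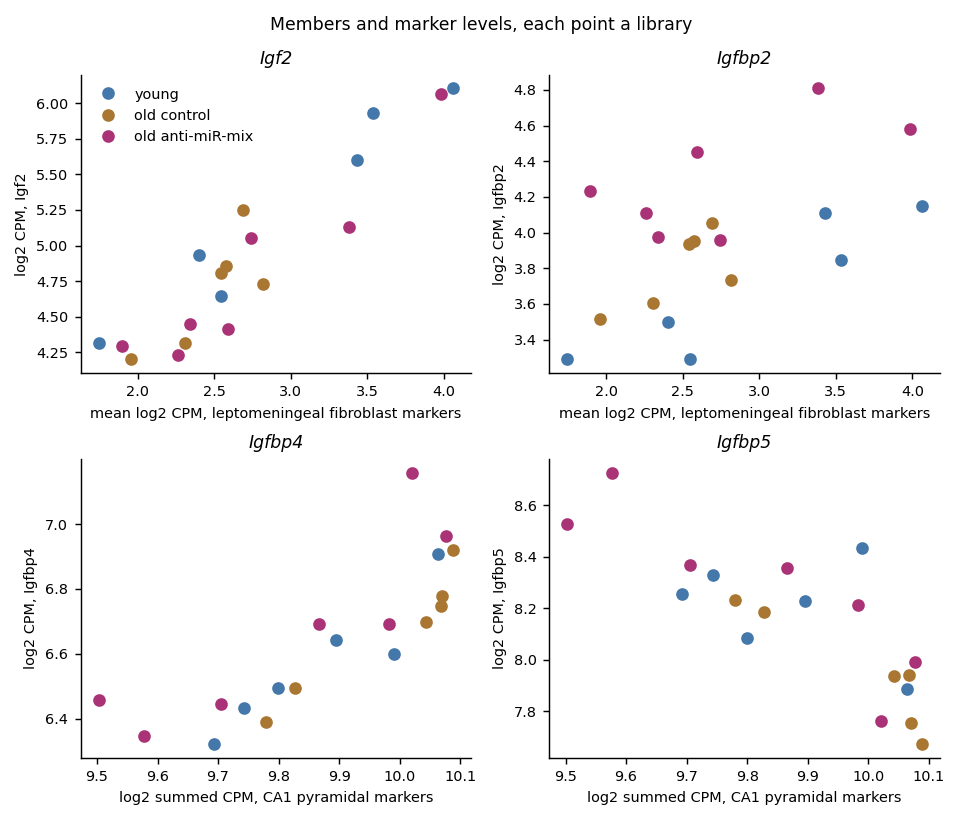
Log2 CPM of Igf2 and Igfbp2 against the mean log2 CPM of 8 leptomeningeal fibroblast markers (top), and of Igfbp4 and Igfbp5 against the log2 summed CPM of 5 CA1 pyramidal markers (bottom), with a point for each library coloured by group. Igf2, Igfbp2 and Igfbp4 run upwards along their markers (r = 0.94, 0.79 and 0.90 of deviations from group means) and Igfbp5 downwards (-0.78).

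The wider pathway was described with a list of 61 other genes, of which 56 were tested. With age 4 of the 56 passed in edgeR, all lower in old control mice, where 2.67% of all genes passed. Between treated and young mice 3 passed, all lower in the treated mice, where 6.2% of all genes passed. With treatment 0 of 56 passed (6 had an unadjusted p under 0.05, and 2 passed in DESeq2), where 0.669% of all genes passed. Oligodendrocyte markers were also lower with age, at a median log2 fold change of -0.44 and 0.24 with treatment. With their log2 sum as a term, chosen after seeing the data, 0 of the 56 genes passed with age (edgeR adjusted p of 0.204 to 0.758 for the 4 genes) and 5 between treated and young mice. In that fit 137 of all 19286 genes passed with age and 1533 between treated and young mice, and a role of oligodendrocytes in the pathway genes was not tested. The median log2 fold changes of the list were -0.020, 0.0039 and -0.033 for age, treatment and treated against young mice. In the order of the pathway, 0 of 4 binding proteins and their partners passed in any comparison. Of 6 genes for binding protein proteases, their inhibitors and ligand degradation, 1 passed with age, Stc2, which encodes an inhibitor of the pappalysins. It had a log2 CPM of 1.51 to 2.30 in young and 0.99 to 1.52 in old control mice (fold change -0.55, SE 0.12, edgeR adjusted p = 0.0215), with 1.48 to 1.90 in treated mice. The groups met at their ends, and with 55 to 187 reads per library Stc2 had the fewest reads of the genes called. The call was lost without young replicate 4 (adjusted p = 0.0554), old control replicate 3 (0.0523) or old control replicate 6 (0.0531). It was also lost in 2 of 15 other settings.

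Of 10 receptor partners, adaptors and phosphatases, Grb14, an adaptor that inhibits the insulin receptor, passed with age (-0.27, SE 0.072, edgeR adjusted p = 0.0476). Values of log2 CPM were 4.68 to 5.14 in young, 4.52 to 4.80 in old control and 4.62 to 4.90 in old anti-miR-mix mice. The call was lost in 9 of 15 other settings and without 12 of the 19 libraries in turn (young replicates 1, 3, 4 and 5, old control replicates 1, 2, 3, 5 and 6, and old anti-miR-mix replicates 2, 5 and 7), where the adjusted p reached 0.131. Of 11 genes of PI3-kinase and Akt, Inppl1, the lipid phosphatase SHIP2 that acts on the PI3-kinase product, passed with age (-0.28, SE 0.057, edgeR adjusted p = 0.0126). Its log2 CPM was 5.00 to 5.35 in young, 4.83 to 4.94 in old control and 4.96 to 5.26 in treated mice, so old control lay below both other groups without overlap. The age call held without each of the 19 libraries and was lost in 2 of 15 other settings. Over all of these the age difference ranged from -0.31 to -0.12. The treatment difference of Inppl1, 0.21 (SE 0.056), did not pass in edgeR (adjusted p = 0.0995) and passed in DESeq2 (adjusted p = 0.0432) and without old anti-miR-mix replicate 6 (edgeR adjusted p = 0.0474).

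Between treated and young mice, Pik3ca, a catalytic subunit of PI3-kinase, was lower by -0.13 (SE 0.032, edgeR adjusted p = 0.0216) and Pdpk1, the kinase that phosphorylates Akt, by -0.13 (SE 0.035, adjusted p = 0.0309). The values of Pdpk1, 7.37 to 7.44 in young and 7.15 to 7.34 in treated mice, did not overlap, and those of Pik3ca, 6.46 to 6.61 and 6.36 to 6.51, did. The call of Pik3ca was lost without young replicate 4 or 5, and that of Pdpk1 without young replicate 1, 2, 3 or 6 or old anti-miR-mix replicate 2, 4 or 7, with an adjusted p of at most 0.0714. Of 15 other settings, 3 lost the call of Pik3ca and 2 that of Pdpk1. Of 6 genes of FOXO and GSK3, Foxo3, a transcription factor that Akt keeps out of the nucleus, passed with age (-0.22, SE 0.044, edgeR adjusted p = 0.00999) and between treated and young mice (-0.17, SE 0.042, adjusted p = 0.0151). Its log2 CPM was 6.27 to 6.51 in young, 6.13 to 6.28 in old control and 6.16 to 6.37 in treated mice, and both calls held without each of the 19 libraries. The age call of Foxo3 was lost in 2 of 15 other settings, with the oligodendrocyte sum (adjusted p = 0.204) and with processing group and merged old control replicates 5 and 6 (0.0791), and its call between treated and young mice was lost in 1, limma on the deposited log2 values (0.0684). None of 9 genes of mTOR and translation, 4 of the growth hormone receptor route, 4 of the mannose 6-phosphate route and 2 imprinted or antisense RNAs passed in any comparison by edgeR. The groups did not overlap for 2 of 56 genes with age (Inppl1, and M6pr, named after its values were seen, at 0.080 with an adjusted p of 0.136), 1 with treatment (Inppl1) and 1 between treated and young mice (Pdpk1), where the shares of all genes were 2.54%, 0.498% and 2.42%.

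**Figure D5:**
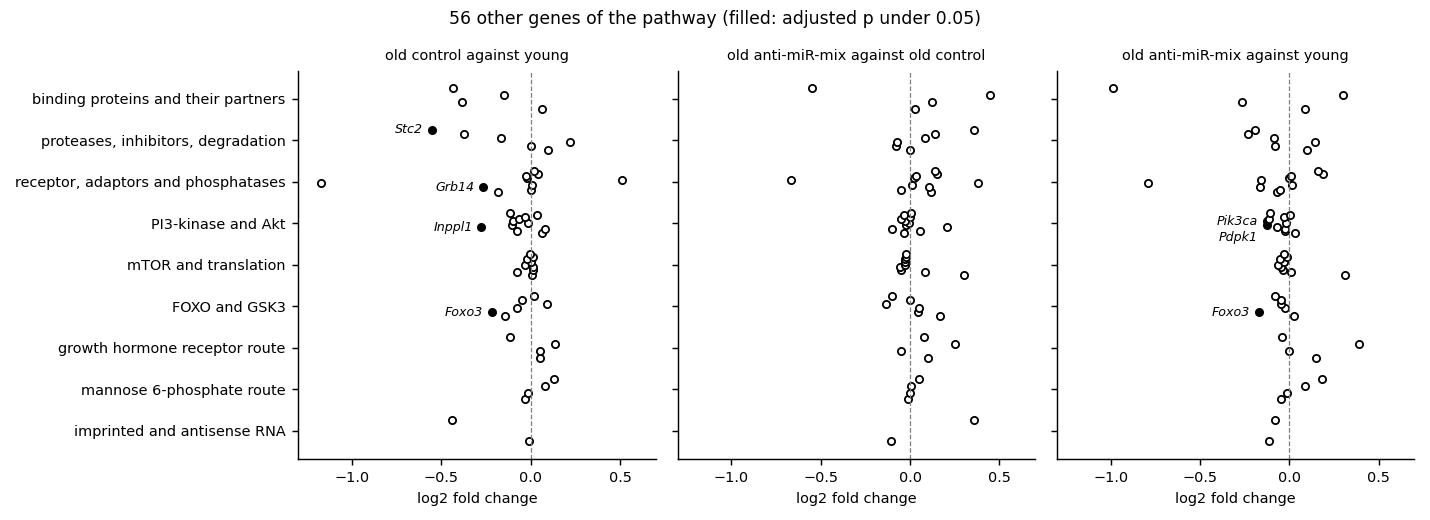
Log2 fold change of the 56 other pathway genes by role in the 3 comparisons, with a filled and named point where the edgeR adjusted p is under 0.05. All filled points lie on the lower side, at -0.55 to -0.22 with age and at -0.17 to -0.13 between old anti-miR-mix and young, and none is filled with treatment.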

How the data were processed

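Polyadenylated RNA libraries (TruSeq RNA kit v2, single-end reads of 50 bases) were made and sequenced by the authors, who mapped reads to mm10 (GRCm38) with STAR 2.5.2b and counted them per gene with featureCounts (Subread 1.5.1). The deposited files held raw counts per library, and the authors also deposited log2 values of 18761 genes. These log2 values equalled log2(CPM + 1) minus a slope per gene multiplied by a whole number from 1 to 4 per library, within 3.4e-08, and these numbers are the processing groups. How they arose, and the strand and multi-mapping options of counting, are not given in the sources used here. Groups 1 to 4 held 1, 1, 2 and 2 of the young mice. They held 2, 2, 0 and 2 of the old controls. They held 1, 2, 3 and 1 of the treated mice.

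A gene was tested if it had 5 reads or more in 50% or more of the libraries, by edgeR's quasi-likelihood test in a joint fit of the 3 groups (edgeR 4.0.16, R 4.3.3, TMM, no covariate), with Benjamini-Hochberg adjustment over all tested genes and a threshold of 0.05. The study used DESeq2, an alternative here (1.42.0) beside RLE size factors, other filters, processing group terms, limma 3.58.1 on the deposited log2 values, a replicate block and leaving out each library. The tests were checked on simulated data. Log2 CPM used a prior count of 2, and CPM per kb the union of exons in GENCODE M21, which also gave symbols, coordinates and 3′UTRs and may differ from the annotation used for counting. P values measure the spread between these libraries. The genes named were the 10 members, pathway genes past the threshold in any comparison, and the 3 genes most correlated with each member, of which 1 is not reported here. The members and lists were chosen with earlier results of these data known.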

Additional observations from a re-analysis of the deposited data

Results flagged for a closer look

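Of 48 groups of values examined (16 genes in 3 groups), 3 held a library set apart from the rest of its group by a gap that was large relative to the range, where chance alone gives about 1 group in 20. Irs1 in young replicate 2 was at 3.52 log2 CPM, below the other young libraries at 3.85 to 4.01. Irs1 in old control replicate 4 was at 4.02, above the other old control libraries at 3.57 to 3.71. Irs2 in young replicate 4 was at 6.92, above the other young libraries at 6.25 to 6.43.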

How the results depend on the processing

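Of the results for single genes under other settings, 1508 kept their direction and side of the threshold, 76 lost a call, 5 gained one and 43, all without a call, changed sign. The age call among the members was 0 with genes of at least 1 read, processing group as a factor or linear term, limma on the deposited log2 values, old control replicates 5 and 6 as 1 library, only the 2 groups, the replicate block, the leptomeningeal sum as a term, and the factor with replicates 5 and 6 merged. Without each library it was 0 to 1. With the oligodendrocyte sum 1 member was called with age, Igf2 in place of Insr. With the leptomeningeal sum, 1 member was called with treatment, and 0 with the leptomeningeal mean. Treated against young mice, 0 members were called with only the 2 groups and 0 to 1 without each library. The terms for marker sums and means, and the factor with the merged library, were added after seeing the data.

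Of the pathway genes, 0 were called with age under the factor with the merged library, 0 with the oligodendrocyte sum, and 2 to 5 without each library (2 without young replicate 4 or old control replicate 3 or 6). With treatment, 2 were called by DESeq2 and 0 to 2 without each library (2 without old anti-miR-mix replicate 6). Treated against young, 1 was called with genes of at least 1 read, 1 by limma and 5 with the oligodendrocyte sum, where 930, 1219 and 1533 of all genes were called.

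Over all genes, age calls (514) were 323 with genes of at least 1 read, 914 by DESeq2, 313 with replicates 5 and 6 merged, 772 with only the 2 groups, 225 under the factor with the merged library, 137 with the oligodendrocyte sum, and 214 (without young replicate 4) to 746 without each library. Treatment calls (129) were 267 by DESeq2, 9 under the factor, 33 with the merged library, 55 with only the 2 groups, 249 with the replicate block, 6 under the factor with the merged library, 31 with the CA1 sum, 0 with the oligodendrocyte sum (1006 at an unadjusted p under 0.05), and 24 (without old control replicate 2 or 5) to 247 (without old anti-miR-mix replicate 1). The causes were not tested. Libraries with the same number in different groups were not treated as pairs in the main fit. Their deviations correlated at -0.17 to 0.21 over 18 pairs, and 4 of 19 libraries correlated best with their own number. These values cannot show whether the numbers stood for a shared day or handling. With the block the calls over all genes were 651 for age and 1192 for treated against young mice.

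Signs changed as follows. With the oligodendrocyte sum as a term, Igf1r was 0.030, Igf2r -0.042, Irs2 0.049 and Igfbp2 -0.22 with age, and Igf1r -0.0061, Irs2 -0.055 and Pdpk1 0.0018 with treatment. With the leptomeningeal mean, Igf2 was -0.12 with treatment. With the CA1 sum as a term, Igf1r was 0.014 and Igfbp4 -0.037 with age, and Igf1r -0.029, Irs1 -0.077, Pdpk1 0.013 and Foxo3 -0.0082 with treatment. With treatment, Igf1r was -0.00011 under the block, and Irs2 was -0.058 under the factor and -0.056 with the merged library too. Treated against young, Igf1 was -0.0052 under the factor and -0.0049 with the merged library too. Igf1r, at 0.0002, was -0.0044 with RLE, -0.0037 with genes of at least 1 read, -0.0047 by DESeq2, -0.0061 under the factor, -0.0037 with only the 2 groups, -0.026 under the block, -0.0065 under the factor with the merged library and -0.015 with the CA1 sum. Without each library in turn, values of both signs were seen for Igfbp2 with age (-0.0055 to 0.17, negative without young replicate 4 or 5), for Igf2 (-0.10 to 0.34, negative without old anti-miR-mix replicate 6), Igf1r (-0.00067 to 0.047) and Igfbp4 (-0.066 to 0.077) with treatment, and for Igf1 (-0.014 to 0.069), Igf1r (-0.031 to 0.022) and Irs2 (-0.12 to 0.033, positive without young replicate 4) between treated and young mice.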
